A study of Homo sapiens with 42 samples.

Results

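The genes described here are the receptors of the EGFR family, the growth factors that bind them, and ERRFI1, an inhibitor that the receptors induce. They are EGFR, ERBB2, ERBB3, AREG, EREG, HBEGF, TGFA, BTC, NRG1 and ERRFI1, 10 genes in all. A gene was taken from the table entries listed with that single gene symbol, and the entry with the highest mean over the 42 arrays stood for a gene with more than 1. This gave 9 measured genes of the 18404 genes tested, and AREG was not analysed here. Total RNA from 2 human lung cancer cell lines was hybridised to 42 one-colour Affymetrix arrays. H460 is a large-cell carcinoma line that the study names as radiosensitive, and H1299 is a non-small cell carcinoma line that it names as radioresistant. For each line there were 3 arrays at each of 2, 4, 8, 12 and 24 h after 2 Gy of gamma rays from a linear accelerator, and 6 arrays at 0 h, which the labels describe as before irradiation. All cells were growing exponentially in RPMI medium with fetal bovine serum, and no genotype was altered. The treatment protocol also names unirradiated cells incubated for the same periods, and whether any of the 0 h arrays come from them is not stated. No unirradiated array was labelled with a time after 0 h, so the effects of radiation and of hours in culture cannot be told apart. Each line is a single long-established culture, and the arrays of a group are called biological replicates, so p-values measure the spread between these samples.

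EGFR, ERBB2 and ERBB3 are cell-surface receptors that work in pairs. EGFR is bound by EGF, TGF-alpha, amphiregulin, HB-EGF, epiregulin and betacellulin, ERBB3 is bound by neuregulins and has little kinase activity of its own, and ERBB2 has no known ligand and serves as the partner. The ligands are made as membrane-bound precursors that metalloproteases such as ADAM17 cut free, and the active receptors signal through RAS, RAF, MEK and ERK and through PI3 kinase. ERK signalling in turn induces ligand genes and the inhibitors that damp it, among them ERRFI1 (also called MIG6), DUSP6 and SPRY4. In lung cancer EGFR is a drug target, and ionizing radiation is known to activate the receptor and to release its ligands.

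Values are log2 array summaries as deposited, a difference of 1 being a 2-fold change. They came without detection calls, so no background level was set, and the level of one gene is not compared with that of another. The test of a time course was a quadratic regression on hours, run within a line, and a change at a time point is the mean there minus the mean at 0 h, both with limma. A gene is called at an adjusted p (Benjamini-Hochberg over all genes) under 0.05, and errors after ± are standard errors of the fit unless given as SD. In bulk RNA, fewer cells of a type and less RNA per cell cannot be told apart. The epithelial keratins KRT8 and KRT18 were high in both lines, with medians of 12.16 and 12.04 in H460 and 10.75 and 12.05 in H1299. KRT19 was high in H460 and much lower in H1299, with medians of 11.38 and 5.25, and EPCAM and CDH1 were low in both, with medians of 3.97 and 3.81 in H460 and 3.67 and 3.65 in H1299. The arrays differed in width, the interquartile range of their log2 values: the mean width in H460 was 3.34 at 0 h, 2.84 at 2 h, 3.35 at 4 h, 3.64 at 8 h, 3.67 at 12 h and 3.64 at 24 h, and in H1299 it was 3.58, 3.53, 3.66, 3.81, 3.82 and 3.67 at the same times. Where a call of one of the 9 genes was lost with the width as a covariate, the value in that fit is given with the gene.

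After irradiation the ligand genes HBEGF and TGFA rose in H1299 to nearly 2 times their 0 h level at 12 and 24 h. Neither was called in H460 at any time in the main fits. The courses of HBEGF, TGFA, EGFR and NRG1 differed between the lines, that of NRG1 not with array width as a covariate (adjusted p = 0.0733) and not without any 1 of 4 single arrays (adjusted p up to 0.13). ERRFI1, which was 6.52-fold lower in H460 than in H1299 at 0 h, rose by 24 h in both lines, by 0.86 in H460 and 0.82 in H1299, and in H460 the value with array width was 0.55 (adjusted p = 0.0768). In H460, the time course was called for 4 of 9 genes (EGFR, ERBB2, NRG1 and ERRFI1), where 41.9% of all genes were called. In H1299 it was called for 6 of 9 (EGFR, EREG, HBEGF, TGFA, NRG1 and ERRFI1), where 36.5% of all genes were called. The difference of time courses was called for 4 of 9, where 16.7% of all genes were called. The H460 count with array width as a covariate was 2 of 9 (EGFR and ERRFI1).

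**Figure D1:**
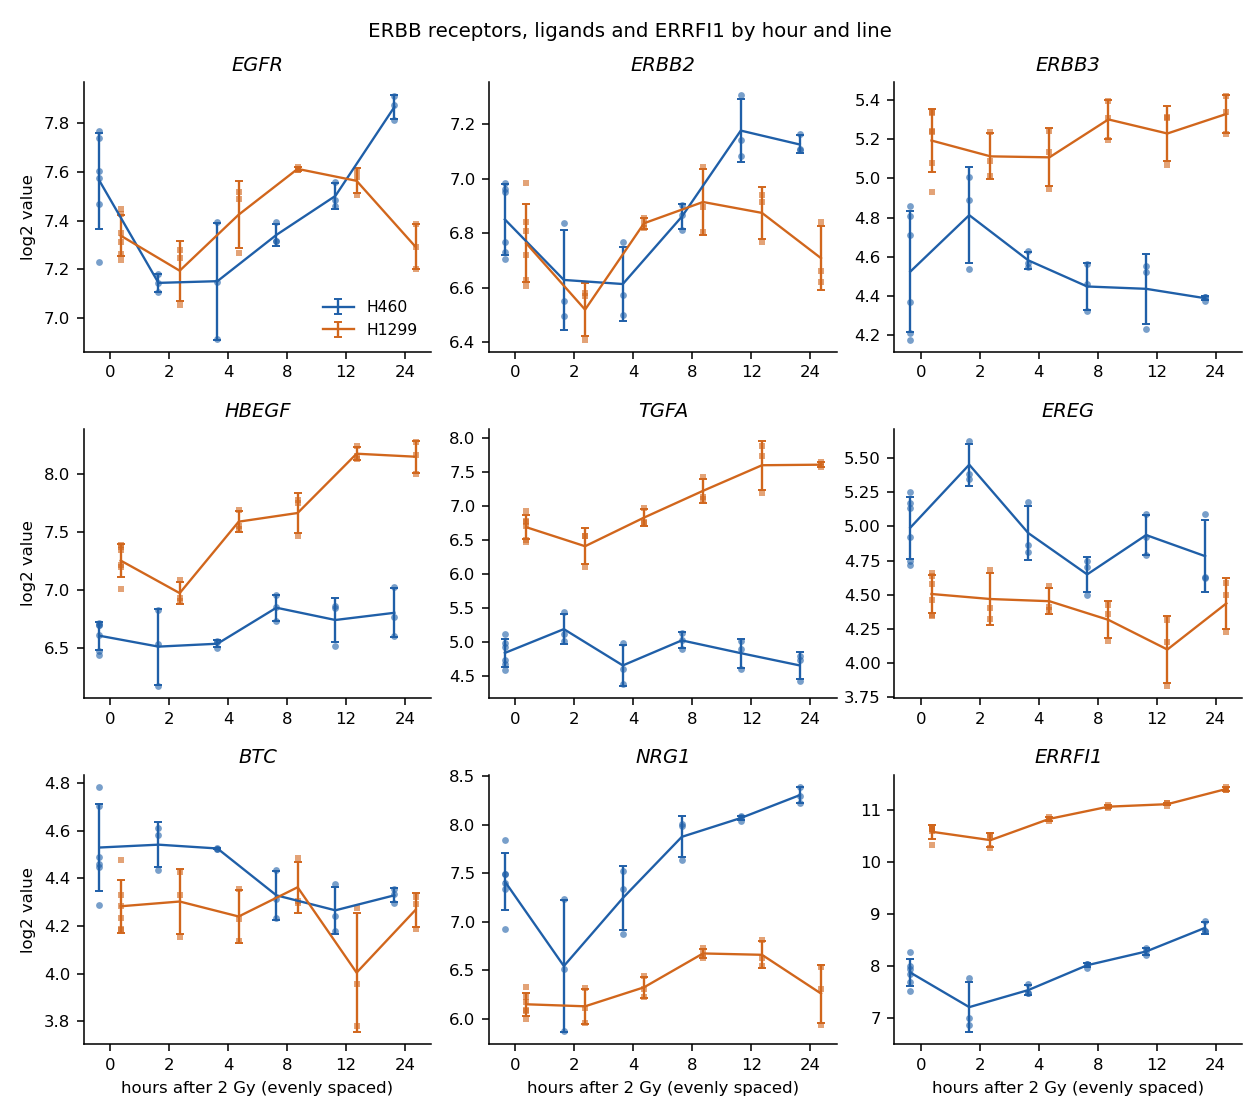
Log2 values of the 9 measured genes by hours after 2 Gy (evenly spaced, not to scale), with H460 drawn as blue circles on the left and H1299 as orange squares on the right of each time. Symbols are single arrays, lines join group means and bars are SD (n = 6 at 0 h, n = 3 later). HBEGF and TGFA climb in H1299 and stay within about 0.4 of their 0 h mean in H460, and ERRFI1 climbs in both lines.

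Before irradiation the lines differed in most of these genes: 7 of 9 were called at 0 h, where 55.1% of all genes were called. ERRFI1, TGFA, ERBB3 and HBEGF were lower in H460, and NRG1, EREG and EGFR were higher in H460. ERRFI1, which binds the EGFR kinase domain and promotes its degradation, ranged from 7.52 to 8.27 with a median of 7.90 in H460 and from 10.32 to 10.68 with a median of 10.63 in H1299. The 2 groups did not overlap, and the difference, H460 minus H1299, was -2.71 ± 0.10 (adjusted p = 1.28e-14). TGFA, which encodes the EGFR ligand TGF-alpha, ranged from 4.58 to 5.12 with a median of 4.83 in H460 and from 6.46 to 6.92 with a median of 6.73 in H1299. Again no H460 array reached the lowest H1299 array, and the difference was -1.85 ± 0.11, or 3.61-fold (adjusted p = 2.04e-11).

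HBEGF, the gene of heparin-binding EGF-like growth factor, ranged from 6.44 to 6.72 in H460 and from 7.004 to 7.39 in H1299 at 0 h, a difference of -0.65 ± 0.090 (adjusted p = 3.23e-06). ERBB3, the neuregulin receptor, ranged from 4.18 to 4.86 in H460 and from 4.93 to 5.34 in H1299, a difference of -0.67 ± 0.13 (adjusted p = 0.000214). Every H460 array lay below every H1299 array for both genes. NRG1, which encodes the ERBB3 ligand neuregulin 1, went the other way, at 6.93 to 7.84 in H460 and 5.998 to 6.33 in H1299, a difference of 1.27 ± 0.12, or 2.41-fold (adjusted p = 1.42e-08). EREG, the gene of epiregulin, ranged from 4.72 to 5.25 in H460 and from 4.34 to 4.66 in H1299, a difference of 0.49 ± 0.12 (adjusted p = 0.00126). All 6 H460 arrays were above all 6 H1299 arrays for NRG1 and for EREG. Of the other receptors, EGFR averaged 7.56 ± 0.20 in H460 and 7.34 ± 0.085 in H1299 (SD, n = 6 each), with overlapping arrays and a difference of 0.23 ± 0.092 (adjusted p = 0.0445). That EGFR call did not survive the loss of several single arrays (adjusted p up to 0.104). ERBB2 differed by 0.087 ± 0.091 (adjusted p = 0.429) and BTC, the gene of betacellulin, by 0.25 ± 0.10 (adjusted p = 0.051), and both had overlapping arrays.

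**Figure D2:**
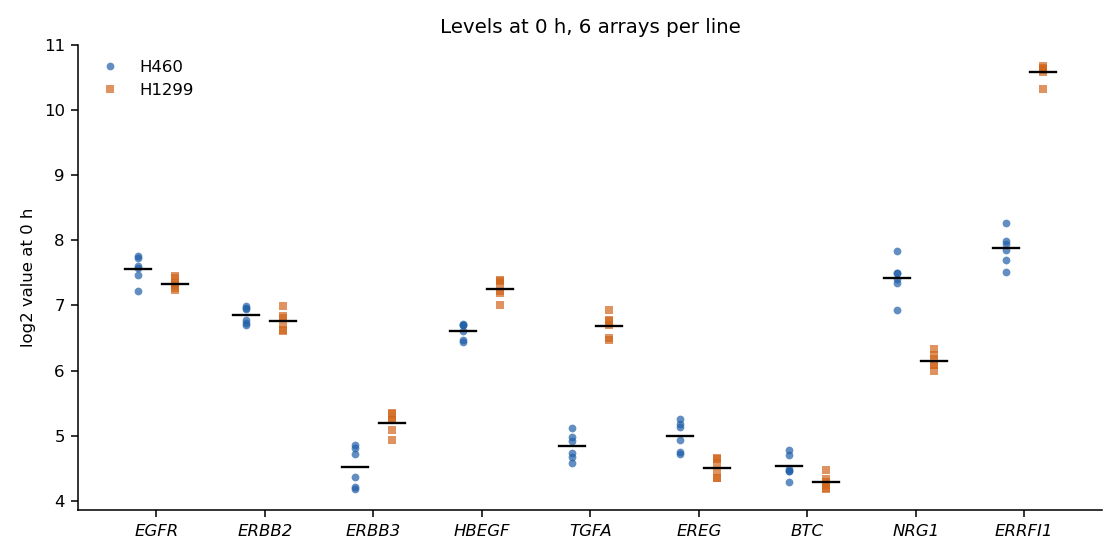
Log2 values at 0 h of the 9 measured genes, with 6 arrays of H460 (blue circles, left) and 6 of H1299 (orange squares, right) for each gene and a black bar at the mean. ERRFI1 and TGFA show the widest gaps between the lines, with H460 lower by 2.71 and 1.85, and EGFR, ERBB2 and BTC overlap.

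The ligand HBEGF rose in H1299 from 4 h on. In H1299 its 6 arrays at 0 h ran from 7.004 to 7.39 with a median of 7.28. The 3 arrays each gave 7.08, 6.93 and 6.90 at 2 h, 7.55, 7.69 and 7.53 at 4 h, 7.77, 7.47 and 7.75 at 8 h, 8.24, 8.13 and 8.16 at 12 h, and 8.17, 8.01 and 8.28 at 24 h. Every array at 4, 8, 12 and 24 h was above every array at 0 h, and those at 12 and 24 h were also above those at 4 and 8 h. The change was 0.34 ± 0.088 at 4 h (adjusted p = 0.00892), 0.41 ± 0.088 at 8 h (adjusted p = 0.00124), 0.92 ± 0.088 at 12 h (1.90-fold, adjusted p = 5.17e-08) and 0.90 ± 0.088 at 24 h (1.86-fold, adjusted p = 1.7e-07). Without H1299 4 h replicate 2 the rise at 4 h was not called (adjusted p = 0.0769). The levels at 12 and 24 h overlapped. A fall of 0.28 at 2 h was called (adjusted p = 0.0331), but its arrays overlapped those at 0 h and the adjusted p was 0.0638 after quantile normalization.

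In H460 the HBEGF arrays at 0 h ran from 6.44 to 6.72 with a median of 6.65. They gave 6.83, 6.53 and 6.17 at 2 h, 6.55, 6.56 and 6.50 at 4 h, 6.96, 6.85 and 6.73 at 8 h, 6.86, 6.85 and 6.52 at 12 h, and 6.61, 6.77 and 7.03 at 24 h. The arrays at 8 h lay just above those at 0 h and all others overlapped them. No change was called, and the largest was 0.24 ± 0.13 at 8 h (adjusted p = 0.179). The H460 change minus the H1299 change was -0.79 ± 0.16 at 12 h (adjusted p = 0.000733) and -0.70 ± 0.16 at 24 h (adjusted p = 0.00169). At 2, 4 and 8 h the difference was not called. In the fit with array width the H1299 change was 0.81 at 12 h (adjusted p = 2.54e-06) and 0.86 at 24 h (adjusted p = 7.89e-08), so these rises were about as large with the width in the fit.

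TGFA followed a similar course in H1299, with its first called rise at 8 h. Its arrays at 0 h ran from 6.46 to 6.92 with a median of 6.73. They gave 6.10, 6.56 and 6.56 at 2 h, 6.76, 6.76 and 6.97 at 4 h, 7.43, 7.13 and 7.11 at 8 h, 7.19, 7.88 and 7.73 at 12 h, and 7.61, 7.64 and 7.57 at 24 h. All arrays at 8, 12 and 24 h were above all those at 0 h, while those at 2 and 4 h overlapped them. The change was 0.54 ± 0.13 at 8 h (adjusted p = 0.00342), 0.91 ± 0.13 at 12 h (1.88-fold, adjusted p = 8.53e-06) and 0.92 ± 0.13 at 24 h (1.89-fold, adjusted p = 2.53e-05). The levels at 8 and 12 h overlapped, as did those at 12 and 24 h. With array width as a covariate the change was 0.73 at 12 h (adjusted p = 0.000712) and 0.85 at 24 h (adjusted p = 1.98e-05), but the rise at 8 h was no longer called (0.36, adjusted p = 0.0948).

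In H460, TGFA stayed near its low starting level. As no background level was set, whether TGFA was expressed in H460, or a small rise could be seen there, cannot be told. Its arrays ran from 4.58 to 5.12 with a median of 4.83 at 0 h. They gave 5.11, 5.44 and 5.01 at 2 h, 4.98, 4.38 and 4.59 at 4 h, 5.14, 5.02 and 4.90 at 8 h, 4.90, 4.59 and 5.00 at 12 h, and 4.43, 4.73 and 4.79 at 24 h. Every later group overlapped the 0 h arrays and no change was called, with values from -0.18 at 24 h (adjusted p = 0.354) to 0.35 at 2 h (adjusted p = 0.0587). The change at 2 h was called with median centring (adjusted p = 0.0436), array weights (0.64, adjusted p = 0.000465) and all 42 arrays in the fit (adjusted p = 0.0417). With 1 mean per time point in place of the quadratic, the H460 course of TGFA was called (adjusted p = 0.04). The H460 change minus the H1299 change in TGFA was 0.63 at 2 h (adjusted p = 0.0175), -0.92 ± 0.20 at 12 h (adjusted p = 0.00254) and -1.10 ± 0.20 at 24 h (adjusted p = 0.00017). After quantile normalization the difference at 2 h was 0.41 (adjusted p = 0.139), that at 12 h was -0.63 (adjusted p = 0.0595), and that at 24 h was -0.90 (adjusted p = 0.0029). The gap between the lines in TGFA was therefore wider at 24 h, when the group means were 4.65 in H460 and 7.61 in H1299.

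HBEGF and TGFA are shown by the 250 bases before their start because they moved together in H1299, and ERRFI1 because it moved in both lines. The sequences are from RefSeq on GRCh38.p14, on the minus strand, written 5′ to 3′ for the outermost start of each gene. Capitals mark the GC box GGGCGG on either strand, the letters bound by SP-family factors.
HBEGF, chr5:140346604-140346853: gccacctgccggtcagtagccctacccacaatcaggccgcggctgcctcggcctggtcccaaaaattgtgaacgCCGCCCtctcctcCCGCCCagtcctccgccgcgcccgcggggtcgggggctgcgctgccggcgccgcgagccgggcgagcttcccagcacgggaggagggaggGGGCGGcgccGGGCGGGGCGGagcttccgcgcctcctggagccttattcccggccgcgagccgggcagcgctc
TGFA, chr2:70553827-70554076: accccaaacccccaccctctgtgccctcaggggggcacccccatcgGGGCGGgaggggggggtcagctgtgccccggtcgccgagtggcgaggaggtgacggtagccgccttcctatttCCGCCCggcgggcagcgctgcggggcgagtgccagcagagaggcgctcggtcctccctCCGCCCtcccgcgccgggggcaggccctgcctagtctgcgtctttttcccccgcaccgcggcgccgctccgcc
ERRFI1, chr1:8026310-8026559: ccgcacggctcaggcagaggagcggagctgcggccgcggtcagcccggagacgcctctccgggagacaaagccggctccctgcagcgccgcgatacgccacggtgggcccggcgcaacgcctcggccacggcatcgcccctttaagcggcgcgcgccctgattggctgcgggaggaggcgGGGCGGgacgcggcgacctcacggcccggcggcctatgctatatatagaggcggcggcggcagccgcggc
All 3 stretches are rich in G and C, at 76.4% for HBEGF, 75.6% for TGFA and 75.2% for ERRFI1. The GC box was found 5 times before HBEGF, where a pair overlaps by 1 base, 3 times before TGFA and 1 time before ERRFI1. It is common, being present in 42.6% of 35116 promoters of the same length. Searched on both strands as well were the AP-1 letters TGANTCA (6.57% of promoters), the CRE letters TGACGTCA (1.65%), the ETS core CCGGAA (14.5%) and the TATA box TATAAA (10.7%). These exact letters of the 4 motifs were not in the 3 stretches. Variants were not searched for, such as the letters tatatata near the end of the ERRFI1 stretch. Among the other genes with a sequence, the AP-1 letters were found 1 time before ERBB2 and 2 times before the inner start of EGFR, and the TATA letters 2 times before that start and 1 time each before AREG and EREG. The CRE letters were found 1 time before AREG, and the ETS core 2 times before ERBB2 and 1 time each before AREG and the inner start of TGFA.

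The neuregulin gene NRG1 changed in both lines, with a different course in each. Neuregulin 1 binds ERBB3 and ERBB4. In H460 its arrays ran from 6.93 to 7.84 with a median of 7.45 at 0 h. They gave 7.24, 6.52 and 5.88 at 2 h, 7.52, 6.88 and 7.34 at 4 h, 7.98, 8.01 and 7.63 at 8 h, 8.04, 8.09 and 8.08 at 12 h, and 8.23, 8.39 and 8.30 at 24 h. The arrays at 12 and 24 h were above all those at 0 h, while those at 2 h were widely spread and overlapped them. The change was -0.87 ± 0.20 at 2 h (adjusted p = 0.00154), 0.65 ± 0.20 at 12 h (adjusted p = 0.014) and 0.89 ± 0.20 at 24 h (1.85-fold, adjusted p = 0.00157).

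In H1299, NRG1 ran from 5.998 to 6.33 with a median of 6.13 at 0 h. It gave 5.96, 6.32 and 6.11 at 2 h, 6.44, 6.23 and 6.31 at 4 h, 6.63, 6.67 and 6.73 at 8 h, 6.55, 6.62 and 6.81 at 12 h, and 5.94, 6.31 and 6.54 at 24 h. The arrays at 8 and 12 h were above the 0 h arrays and those at 24 h overlapped them. The rise was 0.53 ± 0.11 at 8 h (adjusted p = 0.000993) and 0.51 ± 0.11 at 12 h (adjusted p = 0.00103), and the change at 24 h was 0.11 ± 0.11 (adjusted p = 0.626). The H460 change minus the H1299 change was -0.85 ± 0.24 at 2 h (adjusted p = 0.00695) and 0.78 ± 0.24 at 24 h (adjusted p = 0.0256).

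The NRG1 values in H460 followed the array width, with r = 0.90 over its 21 arrays, which share time points and width, and r = 0.60 within time points. With the width as a covariate the H460 change in NRG1 was 0.018 at 2 h (adjusted p = 0.991), 0.065 at 12 h (adjusted p = 0.932) and 0.35 at 24 h (adjusted p = 0.444). Neither its H460 time course (adjusted p = 0.16) nor the difference of time courses (adjusted p = 0.0733) was called in that fit, and the differences were -0.34 at 2 h (adjusted p = 0.479) and 0.54 at 24 h (adjusted p = 0.119). In H1299 the NRG1 rises at 8 and 12 h were 0.41 and 0.39 with the width, and the course was called (adjusted p = 0.0358). A further table entry for NRG1 had the lower mean and gave a weaker picture. On that entry the lines differed by 1.003 at 0 h (adjusted p = 1.15e-08), but neither time course was called (adjusted p = 0.0927 in H460 and 0.0785 in H1299). It was lower at 2 h in H460 by 0.33 (adjusted p = 0.00624) and at 24 h in H1299 by 0.28 (adjusted p = 0.0466). The difference of courses on that entry was called (adjusted p = 0.0372). The difference of changes was -0.19 at 2 h (adjusted p = 0.236) and 0.44 at 24 h (adjusted p = 0.00964).

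EREG and BTC gave low values throughout. EREG in H460 gave 5.35, 5.39 and 5.63 at 2 h, against 4.72 to 5.25 at 0 h, a change of 0.46 ± 0.14 (adjusted p = 0.012) with no overlap. In H1299 it gave 4.15, 3.83 and 4.31 at 12 h, against 4.34 to 4.66 at 0 h, a change of -0.41 ± 0.12 (adjusted p = 0.0145). The H460 change minus the H1299 change in EREG was 0.50 at 2 h (adjusted p = 0.0405), and the difference of its time courses was not called. With 1 mean per time point in place of the quadratic, that difference of courses was called (adjusted p = 0.0366). In the fit with array width the EREG change was 0.12 at 2 h in H460 (adjusted p = 0.927) and -0.18 at 12 h in H1299 (adjusted p = 0.389), and the difference at 2 h was 0.13 (adjusted p = 0.774). The EREG course in H1299 was not called in that fit (adjusted p = 0.757). The values of EREG fell with width, with r = -0.78 over the 21 arrays of H460 and -0.77 over those of H1299. BTC lay between 4.18 and 4.78 in H460 and between 3.78 and 4.49 in H1299, and none of its 10 changes was called.

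The receptor EGFR fell at 2 and 4 h in H460 and rose at 24 h in H460 and at 8 and 12 h in H1299, and its changes differed between the lines at 4 and 8 h. In H460 its arrays ran from 7.23 to 7.77 with a median of 7.59 at 0 h. They gave 7.14, 7.11 and 7.18 at 2 h, 7.39, 6.91 and 7.15 at 4 h, 7.32, 7.32 and 7.39 at 8 h, 7.48, 7.46 and 7.56 at 12 h, and 7.91, 7.87 and 7.81 at 24 h. The arrays at 2 h were below and those at 24 h above all 0 h arrays. The change was -0.42 ± 0.11 at 2 h (adjusted p = 0.00501), -0.41 ± 0.11 at 4 h (adjusted p = 0.0425) and 0.30 ± 0.11 at 24 h (adjusted p = 0.0437). The rise at 24 h was not called after quantile normalization (0.16, adjusted p = 0.329), nor the fall at 2 h (-0.18, adjusted p = 0.236), while the time course was (adjusted p = 0.00741). The fall at 4 h had an adjusted p of 0.0643 after quantile normalization and 0.112 after median centring, and was lost on leaving out any of 14 single arrays (adjusted p up to 0.189), and the rise at 24 h on leaving out any of 13 (adjusted p up to 0.133). With array width as a covariate the H460 change was -0.29 at 2 h (adjusted p = 0.736) and 0.23 at 24 h (adjusted p = 0.446).

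In H1299, EGFR ran from 7.24 to 7.45 with a median of 7.33 at 0 h. It gave 7.05, 7.28 and 7.25 at 2 h, 7.49, 7.52 and 7.27 at 4 h, 7.61, 7.61 and 7.62 at 8 h, 7.58, 7.60 and 7.51 at 12 h, and 7.20, 7.29 and 7.39 at 24 h. The arrays at 8 and 12 h were above the 0 h arrays, by 0.27 ± 0.074 (adjusted p = 0.00869) and 0.22 ± 0.074 (adjusted p = 0.0249), and the other groups overlapped them. In the fit with width these rises were 0.19 (adjusted p = 0.124) and 0.14 (adjusted p = 0.297). The H460 change minus the H1299 change was -0.50 ± 0.13 at 4 h (adjusted p = 0.0129) and -0.50 ± 0.13 at 8 h (adjusted p = 0.0107), and that at 4 h was not called without H460 4 h replicate 2 (adjusted p = 0.0852) or H1299 4 h replicate 2 (adjusted p = 0.0515). The difference of EGFR time courses was called with array width as a covariate (adjusted p = 0.000242) and after quantile normalization (adjusted p = 0.000362), while the H1299 course alone was not called in the fit with width (adjusted p = 0.194).

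ERBB2, the partner receptor, gave 7.14, 7.31 and 7.08 at 12 h in H460, against 6.71 to 6.99 at 0 h. All 3 arrays were above the 0 h arrays and the change was 0.33 ± 0.11 (adjusted p = 0.0197), but with array width as a covariate it was 0.24 (adjusted p = 0.432) and the H460 time course of ERBB2 was not called (adjusted p = 0.385). At 24 h ERBB2 gave 7.16, 7.11 and 7.10 in H460, a change of 0.28 ± 0.11 that missed the threshold (adjusted p = 0.0506). None of the 5 ERBB2 changes in H1299 was called, the largest being -0.24 ± 0.088 at 2 h (adjusted p = 0.0657). The difference of ERBB2 time courses was not called (adjusted p = 0.132), but it was with 1 mean per time point in place of the quadratic (adjusted p = 0.00655). ERBB3 had no called change in either line, with changes from -0.14 to 0.29 in H460 and from -0.086 to 0.14 in H1299.

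The inhibitor ERRFI1 rose in both lines. In H460 its arrays ran from 7.52 to 8.27 with a median of 7.90 at 0 h. They gave 7.77, 7.001 and 6.88 at 2 h, 7.49, 7.66 and 7.48 at 4 h, 8.05, 8.04 and 7.97 at 8 h, 8.35, 8.21 and 8.29 at 12 h, and 8.67, 8.87 and 8.67 at 24 h. All arrays at 24 h, and no other group, were above all 0 h arrays, and the change was 0.86 ± 0.15 (1.81-fold, adjusted p = 0.000134). The change was -0.67 ± 0.15 at 2 h (adjusted p = 0.0015) and 0.40 ± 0.15 at 12 h (adjusted p = 0.0404). The rise at 12 h was not called after quantile normalization (0.25, adjusted p = 0.213), with a replicate block (0.26, adjusted p = 0.205) or on leaving out any of 7 single arrays (adjusted p up to 0.124).

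In H1299, ERRFI1 ran from 10.32 to 10.68 with a median of 10.63 at 0 h. It gave 10.27, 10.48 and 10.52 at 2 h, 10.88, 10.83 and 10.80 at 4 h, 11.06, 11.04 and 11.10 at 8 h, 11.13, 11.13 and 11.09 at 12 h, and 11.39, 11.38 and 11.44 at 24 h. From 4 h on every array was above every 0 h array, and the arrays at 24 h were above those at all other times. The rise was 0.25 ± 0.067 at 4 h (adjusted p = 0.0116), 0.48 ± 0.067 at 8 h (adjusted p = 1.17e-05), 0.53 ± 0.067 at 12 h (adjusted p = 2.06e-06) and 0.82 ± 0.067 at 24 h (1.77-fold, adjusted p = 8.32e-09).

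The H460 change in ERRFI1 minus the H1299 change was 0.037 ± 0.17 at 24 h (adjusted p = 0.914). At 2 and 4 h it was -0.50 ± 0.17 (adjusted p = 0.0234) and -0.59 ± 0.17 (adjusted p = 0.0237), while the difference of the whole time courses was not called (adjusted p = 0.367). The difference of changes at 2 h was -0.31 after quantile normalization (adjusted p = 0.129) and -0.12 with array width (adjusted p = 0.766). That at 4 h was -0.39 with 0 h replicates 4 to 6 only (adjusted p = 0.263). Leaving out any of 4 single arrays ended the call at 2 h (adjusted p up to 0.173), and any of 3 that at 4 h (adjusted p up to 0.0657). ERRFI1 moved with array width in both lines. In H460 r was 0.81 over the 21 arrays and 0.48 within time points, and in H1299 it was 0.67 and 0.91. With width as a covariate the H460 change was -0.16 at 2 h (adjusted p = 0.907), 0.069 at 12 h (adjusted p = 0.91) and 0.55 at 24 h (adjusted p = 0.0768), and the H460 time course was called (adjusted p = 0.00349). In H1299 the rise at 24 h was 0.76 in that fit (adjusted p = 1.06e-11).

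**Figure D3:**
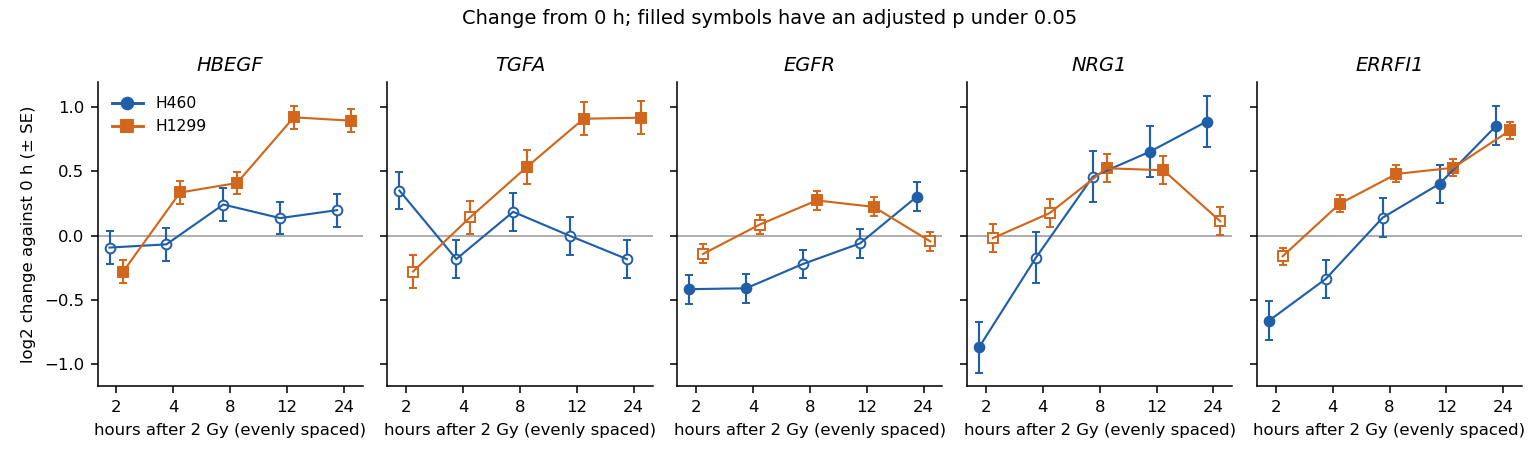
Log2 change from 0 h (± SE of the fit) in H460 (blue circles) and H1299 (orange squares) for HBEGF, TGFA, EGFR, NRG1 and ERRFI1 by hours after 2 Gy (evenly spaced, not to scale). Filled symbols have an adjusted p under 0.05. HBEGF and TGFA separate at 12 and 24 h, where H1299 is near 0.9, and the ERRFI1 changes meet at 24 h (0.86 in H460 and 0.82 in H1299).

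**Figure D4:**
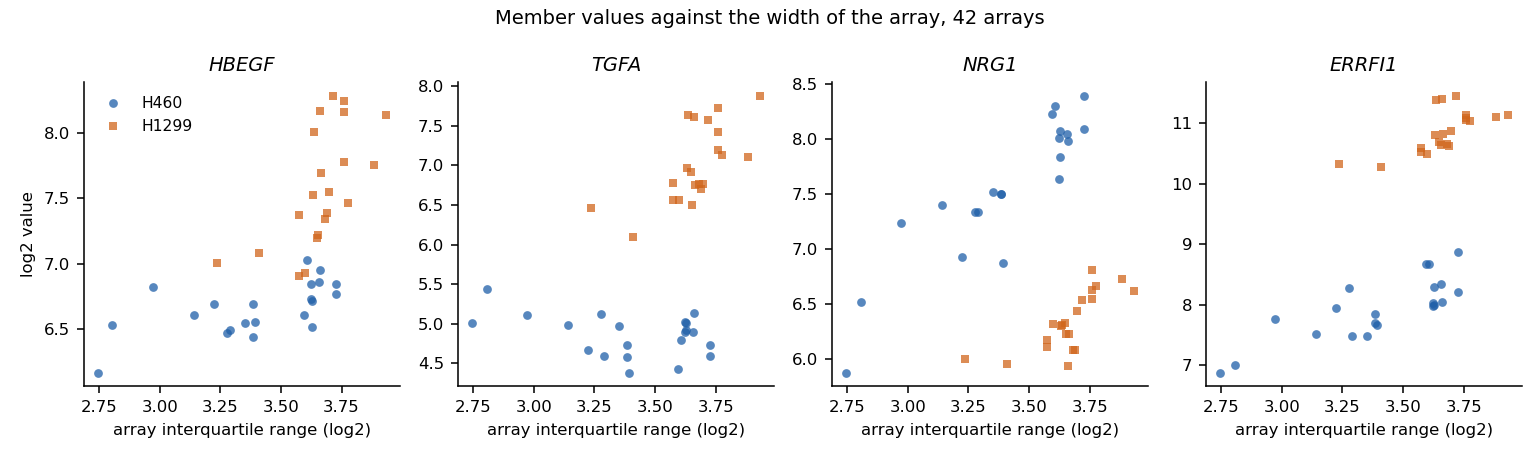
Log2 values of HBEGF, TGFA, NRG1 and ERRFI1 in all 42 arrays against the interquartile range of the array, with H460 as blue circles and H1299 as orange squares. NRG1 and ERRFI1 in H460 have their lowest value on a narrow array of 2 h and climb with width (r = 0.90 and 0.81), while TGFA in H460 does not (r = -0.39). HBEGF in H460 has r = 0.605. In H1299 r is 0.62 for HBEGF, 0.66 for TGFA, 0.74 for NRG1 and 0.67 for ERRFI1.

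Counted by time point, the changes called in H460 were 4 of 9 at 2 h, 1 at 4 h, 0 at 8 h, 3 at 12 h and 3 at 24 h, where 40.4%, 2.92%, 16.9%, 33.5% and 28.7% of all genes were called. In H1299 there were 1 of 9 at 2 h, 2 at 4 h, 5 at 8 h, 6 at 12 h and 3 at 24 h, where 13.8%, 15.9%, 24.6%, 29.7% and 11.7% of all genes were called. The rises of HBEGF and ERRFI1 in H1299 from 4 h on, and that of TGFA from 8 h on, made up 11 of these 17 calls in H1299. At 24 h the median change of the members was 0.20 in H460, with -0.052 over all genes, and 0.11 in H1299, with 0.002 over all genes. The difference of the changes, H460 minus H1299, was called for 4 of 9 at 2 h, 2 at 4 h, 1 at 8 h, 2 at 12 h and 3 at 24 h, where 28.6%, 8.54%, 10.1%, 8.68% and 12.4% of all genes were called. At 24 h these were TGFA and HBEGF below 0 and NRG1 above 0.

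Of the 6 other receptors and ligands of the family, EGF had the smallest p in the H460 course. EGF, the founding ligand of EGFR, rose in H460 and was not called in H1299, while HBEGF and TGFA rose in H1299 and were not called in H460. In H460 the EGF arrays ran from 6.26 to 6.75 with a median of 6.56 at 0 h and from 5.94 to 6.23 at 2 h. They gave 7.56, 7.39 and 7.45 at 12 h and 7.54, 7.57 and 7.51 at 24 h. The arrays at 2 h were below and all 6 arrays at 12 and 24 h above the 0 h arrays. The change was 0.93 ± 0.12 at 12 h (adjusted p = 3.14e-06) and 1.0 ± 0.12 at 24 h (adjusted p = 4.94e-07). In H1299, EGF lay between 3.31 and 4.26 at all times and no change was called. As no background level was set, whether EGF was expressed in H1299 cannot be told. The difference of EGF time courses was called (adjusted p = 4.04e-05), and with array width as a covariate the H460 change at 24 h was 0.77 and both the H460 course (adjusted p = 0.00164) and the difference (adjusted p = 0.000116) were called.

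At 0 h, EGF averaged 6.54 in H460 and 3.75 in H1299, and EPGN, the gene of the EGFR ligand epigen, averaged 9.30 in H460 and 3.41 in H1299. EPGN did not pass the test for a time course in either line (adjusted p = 0.252 in H460 and 0.249 in H1299). EPGN, EREG, AREG and BTC are neighbours in that order on chromosome 4 in RefSeq, and EREG differed by 0.49 at 0 h where EPGN differed by 5.89. NRG4, a ligand of ERBB4, was called in the H460 course (adjusted p = 0.0482). It was not called after quantile normalization (adjusted p = 0.0932) or with array width (adjusted p = 0.579). The courses of ERBB4, NRG2 and NRG3 were called in neither line. With 1 mean per time point the H460 course of ERBB4 (adjusted p = 0.01) and the H1299 course of NRG2 (adjusted p = 0.0434) were called.

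**Figure D5:**
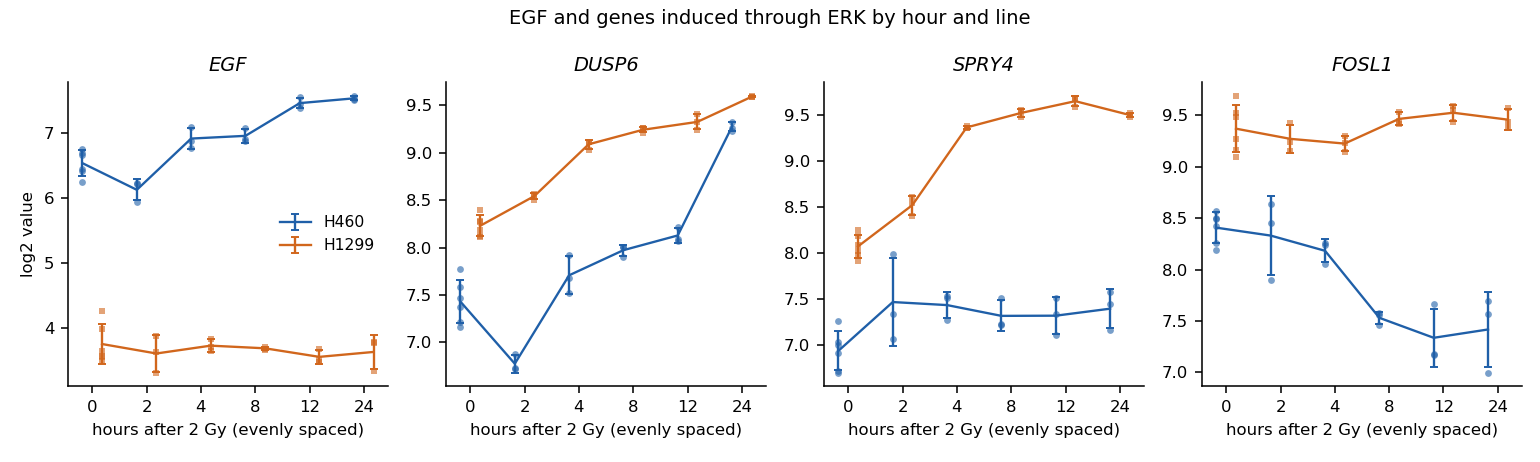
Log2 values of EGF, DUSP6, SPRY4 and FOSL1 by hours after 2 Gy (evenly spaced, not to scale), with H460 as blue circles on the left and H1299 as orange squares on the right. Symbols are single arrays, lines join group means and bars are SD (n = 6 at 0 h, n = 3 later). EGF climbs in H460, DUSP6 in both lines, SPRY4 mainly in H1299, and FOSL1 drops in H460.

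Of 13 sheddases and their partners, the time course was called for 5 in H460 and 7 in H1299, where 41.9% and 36.5% of all genes were called. At 24 h, 3 were up in H460 and 5 in H1299 and none was down, where 28.7% and 11.7% of all genes were called in either direction. The median changes of the 13 were 0.12 in H460 and 0.14 in H1299. ADAM17, the main protease for TGF-alpha and HB-EGF, rose in H1299 by 0.44 ± 0.072 at 12 h (adjusted p = 5.76e-05). In H460 it rose by 0.33 ± 0.12 at 12 h (adjusted p = 0.0325), after a change of -0.58 at 2 h, and its time course was not called (adjusted p = 0.126). The difference of ADAM17 time courses was not called (adjusted p = 0.495). With 1 mean per time point in place of the quadratic, the ADAM17 course in H460 (adjusted p = 8.9e-05) and the difference (adjusted p = 0.0028) were called. RHBDF2, a rhomboid-like partner that brings ADAM17 to the cell surface, rose at 24 h in both lines, by 0.64 ± 0.11 in H460 (adjusted p = 0.000103) and 0.30 ± 0.080 in H1299 (adjusted p = 0.0132). In the fit with array width the counts were 1 of 13 courses in H460 and 5 of 13 in H1299.

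Of 17 measured adaptors and kinases, the course was called for 9 in each line, where 41.9% of all genes were called in H460 and 36.5% in H1299. The docking protein gene GAB1 rose in H460 by 0.96 ± 0.12 at 12 h (adjusted p = 2.08e-06) and changed by 0.18 ± 0.10 in H1299 (adjusted p = 0.194). STAT3 rose in H460 by 0.55 ± 0.098 at 12 h (adjusted p = 0.000231), and was not called in H1299. SOS1, which loads RAS with GTP, rose in H1299 by 0.53 ± 0.067 at 12 h (adjusted p = 1.83e-06), and MAP2K2, which encodes MEK2, fell in H1299 by 0.51 at 12 h (adjusted p = 1.09e-05). In H460, MAP2K2 changed by -0.50 at 12 h. Its course there had an adjusted p of 0.0555, and of 0.0138 after quantile normalization. The H460 means of SOS1 were 7.89 at 0 h, 7.04 at 2 h and 8.21 at 12 h, and its course was not called (adjusted p = 0.258). The difference of courses was called for neither gene (adjusted p = 0.764 for SOS1 and 0.631 for MAP2K2). With 1 mean per time point in place of the quadratic, SOS1 was called in the H460 course (adjusted p = 2.12e-05). Its difference of courses was also called in that form (adjusted p = 1e-05). The difference of time courses was called for 5 of the 17, where 16.7% of all genes were called. In GAB1 (adjusted p = 0.000274), STAT3 (adjusted p = 0.000343) and PIK3R1, a PI3 kinase subunit gene (adjusted p = 0.000209), the larger rise was in H460. The others, named after their values were seen, were GRB2 (adjusted p = 0.0343) and PLCG1 (adjusted p = 0.0134), which fell in H460 by 0.45 at 12 h.

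Of 18 measured genes for receptor degradation and inhibition, the course was called for 10 in H460 and 8 in H1299, against 41.9% and 36.5% of all genes. At 24 h, 9 were up and 1 down in H460, and 2 up and 1 down in H1299, against 28.7% and 11.7% of all genes called in either direction. SOCS3, a feedback inhibitor of cytokine receptors, rose in H460 by 1.28 ± 0.14 at 24 h (adjusted p = 1.67e-07) and changed by 0.23 ± 0.10 in H1299 (adjusted p = 0.17). CBLB, a ubiquitin ligase for activated receptors, rose in H460 by 1.17 ± 0.14 at 24 h (adjusted p = 6.19e-07) and changed by 0.13 ± 0.11 in H1299 (adjusted p = 0.556). The differences of both courses were called (adjusted p = 1.25e-05 for SOCS3 and 4.54e-05 for CBLB). CBL, a ligase of the same family, rose in H1299 by 0.41 ± 0.071 at 12 h (adjusted p = 0.00011). The H460 means of CBL were 7.575 at 0 h, 7.04 at 2 h and 7.76 at 12 h. Neither its H460 course (adjusted p = 0.294) nor the difference of its courses (adjusted p = 0.711) was called. With 1 mean per time point in place of the quadratic, the H460 course of CBL was called (adjusted p = 0.000373). With array width as a covariate, 2 of the 18 were called at 24 h in H460 and 3 in H1299.

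Of 20 genes known to be induced through ERK, the course was called for 11 in H460 and 13 in H1299, and the difference of courses for 11, against 41.9%, 36.5% and 16.7% of all genes. At 24 h, 10 were up and 2 down in H460, and 11 up and none down in H1299, against 28.7% and 11.7% of all genes called in either direction. The median changes of the 20 were 0.23 in H460 and 0.24 in H1299. With array width as a covariate 6 were up and 1 down in H460 and 11 up in H1299. DUSP6, the ERK phosphatase, ran from 7.16 to 7.78 at 0 h in H460 and from 8.11 to 8.40 in H1299. At 24 h it gave 9.23, 9.33 and 9.26 in H460 and 9.59, 9.58 and 9.59 in H1299. It was thus above all 0 h arrays in both lines, by 1.85 ± 0.12 in H460 (adjusted p = 1.43e-11) and 1.36 ± 0.061 in H1299 (adjusted p = 1.23e-13).

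The time at which DUSP6 moved differed: at 2 h its change was -0.65 ± 0.12 in H460 (adjusted p = 0.000201) and 0.31 ± 0.061 in H1299 (adjusted p = 0.00142), and the difference of courses was called (adjusted p = 0.00225). The H460 arrays at 2 h were the narrowest of the series. The difference of changes at 2 h was -0.97, and it was -0.72 with array width as a covariate and -0.80 after quantile normalization. The difference of courses was called in both (adjusted p = 0.000269 and 0.000657). SPRY4, another feedback inhibitor of the pathway, rose in H1299 at every time, to 9.68, 9.59 and 9.68 at 12 h, against 7.91 to 8.25 at 0 h, a change of 1.58 ± 0.066 (adjusted p = 2.31e-14). In H460 it gave 7.11, 7.51 and 7.35 at 12 h, against 6.71 to 7.27 at 0 h, with overlap and a change of 0.38 ± 0.16 (adjusted p = 0.0631). Its largest change in H460 was 0.53 at 2 h. The H460 course of SPRY4 was not called (adjusted p = 0.155), nor after quantile normalization (adjusted p = 0.748). With array width as a covariate it was called (adjusted p = 0.0184), and with 1 mean per time point as well (adjusted p = 0.0201). PHLDA1 rose in both lines, by 0.55 ± 0.11 in H460 (adjusted p = 0.000535) and 0.84 ± 0.061 in H1299 (adjusted p = 9e-10) at 24 h. FOSL1, a Fos-family gene, fell in H460, at 7.18, 7.17 and 7.66 at 12 h, against 8.19 to 8.58 at 0 h, a change of -1.07 ± 0.15 (adjusted p = 1.69e-05). In H1299 FOSL1 changed by 0.16 ± 0.095 at 12 h (adjusted p = 0.224), and the difference of courses was called (adjusted p = 3.59e-07).

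The genes with the course most like that of each member were looked for among 3071 genes whose time courses differed between the lines, by Pearson correlation over the 42 arrays with each line centred on its own 0 h mean. The arrays share time points and width, so these are descriptions. For HBEGF they were MYH15 (r = 0.83), PLAU, the gene of urokinase (r = 0.82), and the cytokine gene LIF (r = 0.82). For TGFA they were PPL, the gene of periplakin (r = 0.82), CNIH3 (r = 0.77) and GDF6 (r = 0.76). At 24 h PLAU changed by 0.45 ± 0.12 in H460 (adjusted p = 0.00533) and 1.22 ± 0.064 in H1299 (adjusted p = 2.1e-12), and LIF by 0.27 ± 0.11 in H460 (adjusted p = 0.0672) and 1.48 ± 0.10 in H1299 (adjusted p = 4.29e-10). For EGFR they were SLC39A8 (r = 0.86), TGFB2, a transforming growth factor gene (r = 0.86), and ANGEL1 (r = 0.85). TGFB2 rose in H1299 by 1.03 ± 0.11 at 12 h (adjusted p = 1.38e-07), and its change at 24 h was 0.64 ± 0.13 in H460 (adjusted p = 0.000479) and 0.038 ± 0.11 in H1299 (adjusted p = 0.893). For NRG1 they were MCTP1, PNPLA8 and SLC35F5 (all r = 0.94).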

How the data were processed

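Each of the 42 one-colour Affymetrix arrays measured mRNA in 100 ng of total RNA, per the labels' protocols. The deposited values are log2 summaries, 1 per table entry and array, made by the authors with a background correction and normalization not given in the sources used here. They run from 1.45 to 14.2. No 2 arrays were identical (0 pairs).

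Of 32321 table entries, 19158 had 1 gene symbol. Of a gene with several, the entry with the highest mean was kept, which left 18404 genes, tested with no filter on dim genes. Time courses (quadratic in hours) and changes from 0 h were fitted within a line over 21 arrays, differences between the lines over all 42, and 0 h over 12, with lmFit and eBayes with trend (limma 3.58.1, R 4.3.3). Adjusted p is Benjamini-Hochberg over all genes, two-sided, with a threshold of 0.05. With 3 arrays per time point, their number sets the precision. The fits were tested on simulated data.

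The members, the pathway lists and the tests were chosen with earlier results of these data known. The members are always named. Of each list, up to 3 genes per line with the smallest course p, up to 2 with the smallest p for the difference, and DUSP6 and SPRY4 may be named. For members called in the difference, the 3 genes most like each are named. Alternatives were quantile normalization, median centring, array width as a covariate, array weights, a replicate block, other eBayes settings, other sets of arrays or 0 h replicates, other forms of the time term, a filter on dim genes and each array left out. Promoters are from RefSeq, and 8 of the 10 genes matched.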

Additional observations from a re-analysis of the deposited data

Results flagged for a closer look

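Among the 18 groups of 6 arrays at 0 h (9 genes in 2 lines), 1 value lay far from the others of its group: ERRFI1 in H1299 replicate 2, at 10.324, where the other 5 arrays ran from 10.60 to 10.68. That array was also the narrowest of its group, with an interquartile range of 3.24. Chance flags about 1 in 20 such groups.

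The time courses of 4 genes differed between the lines by a test of the difference itself, and the largest change difference, H460 minus H1299, is given for each. For HBEGF it was -0.786 at 12 h (0.14 in H460 and 0.92 in H1299). For TGFA it was -1.105 at 24 h (-0.18 in H460 and 0.92 in H1299). For EGFR it was -0.498 at 4 h (-0.41 in H460 and 0.086 in H1299). For NRG1 it was -0.851 at 2 h (-0.87 in H460 and -0.021 in H1299), on H460 arrays that were the narrowest of the series.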

How the results depend on the processing

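The difference of time courses in HBEGF, TGFA and EGFR, the H1299 courses of HBEGF, TGFA and ERRFI1, and the H460 courses of EGFR and ERRFI1 kept their direction and their call under all settings that gave a value. The number of members called moved by over 1.5 times as follows. For the H460 course (4 of 9) it was 2 with array width as a covariate. For the H1299 course (6 of 9) it was 3 with all 42 arrays in the fit. For the difference of courses (4 of 9) it was 7 with 1 mean per time point, which added ERBB2, EREG and ERRFI1. Of the 45 changes from 0 h in H460, 11 were called, and there were 4 after quantile normalization, 1 with width as a covariate, 20 with array weights, 7 with 0 h replicates 4 to 6 only and 17 with all 42 arrays in the fit. Of the 45 differences of changes 12 were called, and 7 after quantile normalization. The NRG1 change in H460 at 2 h turned to 0.018 with width as a covariate. Of 61 single calls in these genes, 23 were lost with width as a covariate and 17 after quantile normalization. The cause of these shifts was not tested.

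Leaving out each array gave 3 to 5 members for the H460 course, 5 to 6 for the H1299 course, 3 to 4 for the difference of courses, 6 to 7 at 0 h, 6 to 14 changes in H460 (6 without H460 12 h replicate 2), 15 to 19 changes in H1299 (17 with all arrays) and 9 to 13 differences. The NRG1 difference of courses was lost without H460 24 h replicate 2 (adjusted p = 0.0703) or 3 (0.0518) and without H1299 24 h replicate 1 (0.13) or 2 (0.059).

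Replicate numbers were not treated as pairs in the main fits. Deviations of same-numbered arrays at different times correlated by over 0.1 in 6 of 45 pairs of arrays in H460 and 12 of 45 in H1299. Those between the lines at 0 h did so in 3 of 6. Arrays with different numbers were not compared, so these counts cannot show whether the numbers pair the samples. With a replicate block the counts were 4 for the H460 course, 5 for the H1299 course and 4 for their difference, and 5 of 61 single calls were lost, among them the EREG course in H1299 (adjusted p = 0.0893). The filter on dim genes left out 3 of the 9 members, and only 3 arrays per later time point limit what can be told from 0.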
